A study of Mus musculus with 10 samples.

Results

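The plasminogen activator system was followed here through 6 genes of cultured mouse mammary epithelial cells: the activator genes Plau and Plat, the receptor gene Plaur, and the serpin genes Serpine2, Serpinb2 and Serpinb5. The 6 were chosen by gene symbol from the 53167 listed genes, and all 6 were among the 14415 genes that passed the filter on low counts. The list is not a complete set of the inhibitors of this system. RNA came from primary epithelial cells of wild-type mouse mammary gland, grown in serum-containing DMEM. The 5 samples of the BGN group were given biglycan, a small matrix proteoglycan, as protein at 100 ng/mL, and the 5 samples of the Control group were given none. By its title, the study concerned biglycan, epithelial migration and WNT signalling. The labels give no strain, age, duration of stimulation or number of animals behind the cultures, and p-values then cover only how far these samples spread, which may be technical.

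Plasminogen activators are serine proteases that cut the inactive proenzyme plasminogen into plasmin, which degrades fibrin and other matrix proteins and activates some matrix metalloproteinases. The urokinase type (Plau) acts mainly at the cell surface, bound to its receptor (Plaur), while the tissue type (Plat) acts best on fibrin. Serpins inhibit their target proteases by trapping them in a covalent complex, and the receptors of the low density lipoprotein receptor family clear such complexes. In the mammary gland the system is known for its part in tissue remodelling, including involution after lactation.

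Libraries held between 18292624 and 21820560 counted reads. Control replicate 5 stood apart on the second principal component (-26.9, 15.4% of the variance), and mitochondrial genes took 1.16% of its reads, where the remaining 9 libraries had 1.80% to 2.27%. The most extreme score on the first component, 21.0, was that of BGN replicate 5 (18.5% of the variance). The summed CPM (counts brought to the same total in every library) of 9 basal epithelial markers lay between 5425 and 5698 in BGN and between 5364 and 6628 in Control. Of the contractile markers among them, Myh11 and Cnn1 had under 1 CPM on average, Mylk 3.94 CPM and Acta2 27.6 CPM. The receptor gene Oxtr of the same list had 166 CPM. The summed CPM of 11 luminal markers lay between 3896 and 4193 in BGN and between 4037 and 4550.4 in Control. Markers of other cells were lower: 10 fibroblast markers summed to between 46.4 and 52.7 CPM in BGN and between 40.6 and 59.8 CPM in Control, and 10 endothelial markers to between 5.48 and 6.27 CPM in BGN and between 6.22 and 7.27 CPM in Control. Most of each sum came from 1 gene, Pdgfra at 38.7 CPM on average for fibroblasts and Pecam1 at 5.25 CPM for endothelium. The 10 lymphocyte markers reached at most 0.109 CPM in BGN and 0.106 CPM in Control, and 8 of them were at 0 counts. The 12 myeloid markers summed to between 404 and 436 CPM in BGN and between 399.99 and 466.1 CPM in Control. Of this sum Cd14 alone gave 402 CPM on average, while Adgre1 and Tyrobp were at 0 counts and Ptprc had 2 counts in all 10 libraries together. Cd163 averaged 17.3 CPM, Cd68 1.65 CPM and Csf1r 1.26 CPM, and every other marker of this list lay under 1 CPM. The 6 pericyte markers summed to between 189.9 and 209 CPM in BGN and between 179 and 225 CPM in Control, and 150.1 CPM of this came from Notch3. The 6 adipocyte markers reached at most 0.592 CPM in BGN and 0.433 CPM in Control. None of the 8 sums passed after Benjamini-Hochberg adjustment (exact permutation tests, two-sided, smallest adjusted p = 0.127, for the endothelial sum). Their part in the values below was not tested, and in bulk samples fewer cells of a type and less RNA per cell cannot be told apart.

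The members differed in level far more than the groups did. Divided by the length of the longest protein-coding transcript, Serpinb5 came first, at 170.01 ± 6.70 CPM per kb in BGN and 169 ± 7.61 in Control (SD, n = 5 each, as for all group values). Serpine2 followed at 80.8 ± 10.3 CPM per kb in BGN and 78.1 ± 6.49 in Control, and Plau at 25.9 ± 0.771 in BGN and 25.7 ± 0.982 in Control. These 3 transcripts lay above 97.9%, 94.6% and 78.8% of the tested genes with a known length. The other members were scarce, with Plat at 1.92 ± 0.379 CPM per kb in BGN and 2.14 ± 0.325 in Control, Plaur at 1.14 ± 0.227 in BGN and 1.15 ± 0.198 in Control, and Serpinb2 at 0.921 ± 0.213 in BGN and 0.814 ± 0.118 in Control. Neighbours in this order did not overlap in any of the 10 libraries, except Plaur and Serpinb2, whose values overlapped. With the length of all annotated exons merged, a choice made after seeing the data, Serpine2 averaged 21.2 CPM per kb over the 10 libraries and Plat 0.822, so that Serpine2 then ranked below Plau and Plat beside Plaur (0.659) and Serpinb2.

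**Figure D1:**
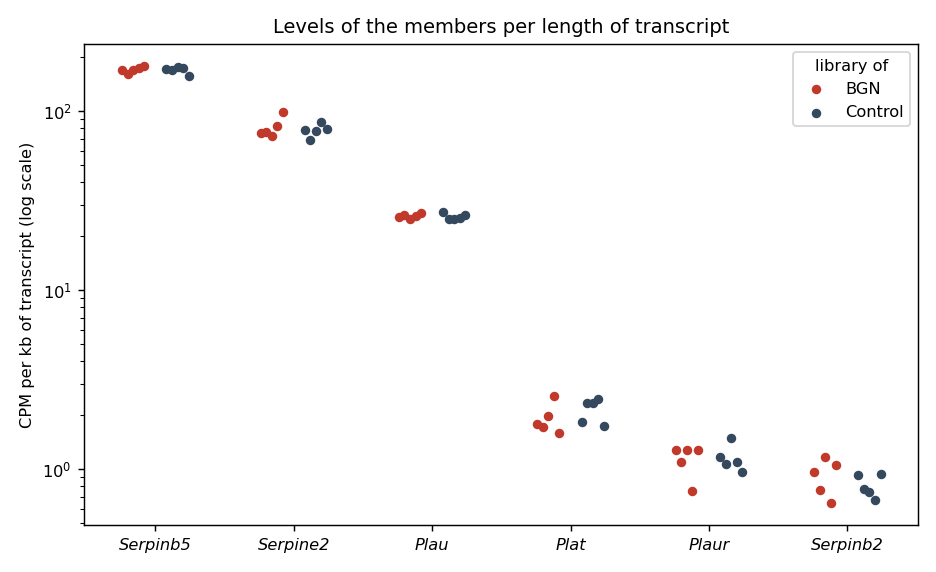
CPM per kb of transcript on a log scale for each of the 6 members, in order of level; each point is 1 library, BGN to the left of Control within a gene. Serpinb5, Serpine2 and Plau sit well above Plat, Plaur and Serpinb2, and for every gene the points of the groups overlap.

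The reference gave a start site for 4 members, by the longest-transcript length the 2 most abundant and the 2 scarcest. With merged exon lengths Serpine2 ranked below Plau. Their sequences are shown as a description, and a link between sequence and level was not tested. Each line gives the 150 bases before the RefSeq start, 5′ to 3′ on the gene's strand (GRCm38.p6, a build other than the one the reads were counted on). Capitals mark matches on either strand to the TATA box TATAAA, to the GC box GGGCGG that Sp1 binds, to the AP-1 motif TGACTCA, or to the motif of TCF/LEF factors in the forms CTTTGAT and also CTTTGAA. Neighbouring GC boxes of Serpine2 and Plaur adjoin or overlap.
Serpinb5 (chr1:106861025-106861174, plus strand): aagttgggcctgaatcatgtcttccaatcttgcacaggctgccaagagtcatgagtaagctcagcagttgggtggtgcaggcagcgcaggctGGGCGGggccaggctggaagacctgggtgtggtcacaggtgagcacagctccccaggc
Serpine2 (chr1:79858666-79858815, minus strand): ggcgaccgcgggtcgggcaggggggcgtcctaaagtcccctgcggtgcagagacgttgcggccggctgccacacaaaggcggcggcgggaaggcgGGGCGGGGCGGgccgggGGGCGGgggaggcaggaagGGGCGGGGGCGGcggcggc
Plaur (chr7:24462333-24462482, plus strand): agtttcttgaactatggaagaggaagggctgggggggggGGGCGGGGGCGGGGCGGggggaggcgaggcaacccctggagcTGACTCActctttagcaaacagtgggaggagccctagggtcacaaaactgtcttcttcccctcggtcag
Serpinb2 (chr1:107511273-107511422, plus strand): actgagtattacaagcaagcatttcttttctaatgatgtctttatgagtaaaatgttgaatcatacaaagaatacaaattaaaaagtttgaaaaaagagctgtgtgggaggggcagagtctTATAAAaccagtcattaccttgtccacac
The windows of Serpinb5, Serpine2 and Plaur held 1, 5 and 3 GC boxes, and 28.97% of 27025 promoter windows of the same length held at least 1. Serpinb2 held no GC box but a TATA box starting at -29, a motif found in 8.08% of windows. Plaur held an AP-1 match starting at -69, found in 2.80% of windows. None of the 4 windows held a TCF/LEF match, which 4.21% of windows had. The GC content was 60.7% for Serpinb5, 81.3% for Serpine2, 62.7% for Plaur and 33.3% for Serpinb2, against a median of 54% over all windows. A match describes these letters and does not show that a factor binds there.

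Of the activator genes, Plau was both the more abundant and the steadier. It stood at 59.6, 61.6, 58.4, 60.3 and 63.1 CPM in BGN replicates 1 to 5, against 63.7, 58.5, 58.1, 59.2 and 61.0 CPM in Control replicates 1 to 5. CPM and CPM per kb, above and below, are scaled with TMM factors, except those of the markers and a bound for genes without reads. The groups overlapped over nearly their whole range, and the highest and lowest values were both Control libraries. The log2 fold change of BGN over Control was 0.013 ± 0.045 (SE), with a 95% interval from -0.081 to 0.11 and an adjusted p of 0.988 (edgeR quasi-likelihood test, Benjamini-Hochberg over all genes tested). On the linear scale this interval ran from 0.945-fold to 1.08-fold. Its sign turned without BGN replicate 5 (-0.00089) and without Control replicate 3 (-0.00025).

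Plat, the tissue-type activator gene, had 4.51, 4.32, 4.98, 6.45 and 4.01 CPM in BGN replicates 1 to 5, against 4.64, 5.88, 5.91, 6.21 and 4.41 CPM in Control replicates 1 to 5. BGN replicate 4 was the highest of the 10 libraries and BGN replicate 5 the lowest, and 1 of 5 BGN libraries lay above the Control median. The log2 fold change was -0.16 ± 0.14 (SE), the interval -0.45 to 0.13 and the adjusted p 0.965 by edgeR. Between 79 and 130 reads stood behind each value. The estimate was -0.28 without BGN replicate 4, -0.094 without BGN replicate 5 and -0.11 without Control replicate 4. Within a library, Plau exceeded Plat per kb by 13.6-fold in BGN (geometric mean, range 10.1 to 17.0) and by 12.1-fold in Control (10.3 to 14.9); with merged exon lengths the ratios were 33.4 in BGN and 29.6 in Control.

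The receptor gene Plaur encodes a protein held in the membrane by a lipid anchor. Its counts were 39, 30, 38, 23 and 42 reads in BGN replicates 1 to 5, or 1.93, 1.64, 1.93, 1.14 and 1.91 CPM, against 32, 34, 42, 32 and 27 reads in Control replicates 1 to 5, or 1.75, 1.599, 2.24, 1.66 and 1.45 CPM. BGN replicate 4 was the lowest and Control replicate 3 the highest of all. The log2 fold change was -0.018 ± 0.20 (SE, interval -0.44 to 0.40, adjusted p = 0.995 by edgeR), and it turned to 0.099 without BGN replicate 4 and to 0.086 without Control replicate 3. The spread between libraries was 20.003% of the mean in BGN and 17.2% in Control, close to the 17.2% that counting 33.9 reads alone gives. On the linear scale the interval ran from 0.736-fold to 1.32-fold. Plau exceeded Plaur per kb by 23.2-fold in BGN (range 19.4 to 33.97) and by 22.5-fold in Control (16.7 to 27.1), and with merged exon lengths by 39.9-fold in BGN and 38.6-fold in Control.

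Serpine2, which encodes protease nexin-1, a secreted inhibitor of thrombin, urokinase and tissue-type activator, was the member that varied most for its level. It stood at 166, 169, 159.7, 181 and 217 CPM in BGN replicates 1 to 5, against 173, 152, 172, 192 and 174 CPM in Control replicates 1 to 5. BGN replicate 5 was the highest library, Control replicate 4 the second and Control replicate 2 the lowest, so that extremes came from both groups. The log2 fold change was 0.050 ± 0.085 (SE, interval -0.14 to 0.24, adjusted p = 0.982 by edgeR) and turned to -0.029 without BGN replicate 5. Its biological coefficient of variation, the spread left after counting error as moderated by edgeR, was 9.36%, above that of 95.6% of the 500 genes nearest to it in count, whose median was 5.38%. That of Plau was 4.93%, above only 9.4% of its 500 nearest genes (median 5.58%). For Plau the moderated value lay above the observed spread itself. This was 2.98% of the mean in BGN and 3.83% in Control, where counting alone gives 2.90%.

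**Figure D2:**
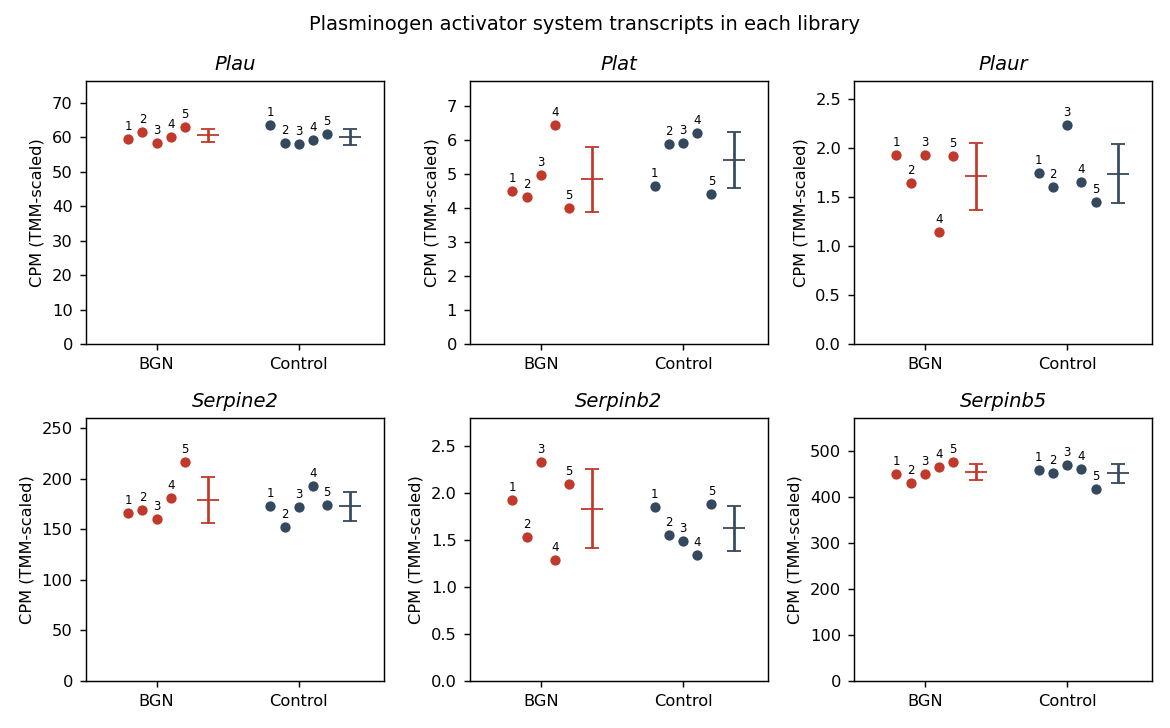
TMM-scaled CPM of each member in each library, with replicate numbers beside the points and the mean ± SD of the 5 libraries to the right of each group; every axis starts at 0. BGN and Control overlap in all 6 panels, and BGN replicate 5 is the high point of Serpine2, at 217 CPM.

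Per kb, Serpine2 exceeded Plau in every library, by 3.10-fold in BGN (geometric mean, range 2.90 to 3.64) and by 3.04-fold in Control (2.75 to 3.44). It exceeded Plat by 42.4-fold in BGN (32.1 to 61.8) and by 36.7-fold in Control (29.5 to 45.1). The ratios of both groups overlapped. With merged exon lengths Serpine2 stood below Plau, at 0.837 of it in BGN and 0.819 in Control, and exceeded Plat by 27.9-fold in BGN and 24.2-fold in Control.

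**Figure D3:**
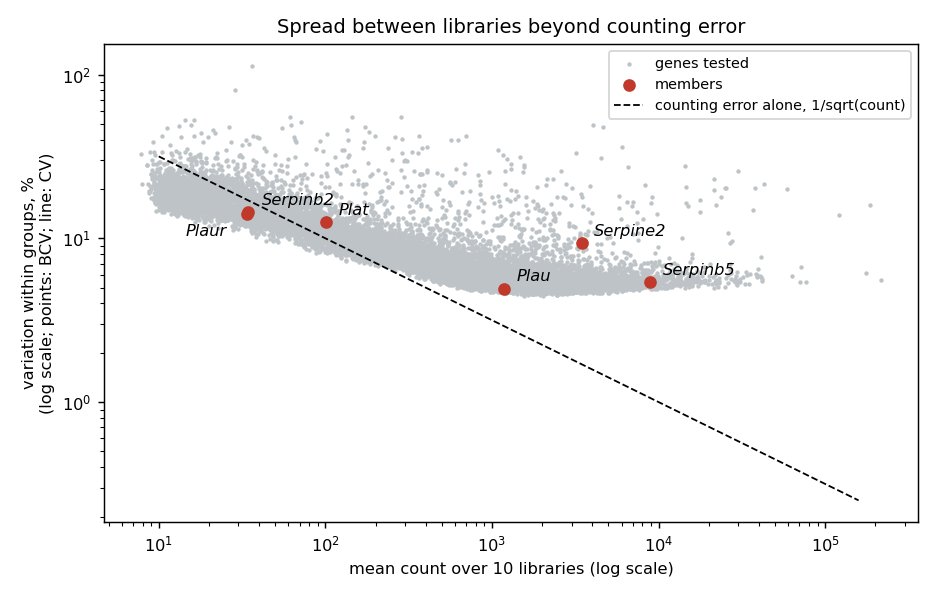
Variation within groups in percent against mean count over 10 libraries, both on log scales, for all genes tested (grey) and the 6 members (red); points are edgeR's biological coefficient of variation and the dashed line is the coefficient of variation that counting alone gives. Serpine2 lies at the upper edge of genes of its count, at 9.36%, and Plau at the lower edge, at 4.93%.

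The clade B serpin Serpinb2 encodes plasminogen activator inhibitor 2, an inhibitor of urokinase that is largely kept inside the cell. It had 1.93, 1.53, 2.34, 1.29 and 2.10 CPM in BGN replicates 1 to 5, against 1.86, 1.55, 1.49, 1.35 and 1.88 CPM in Control replicates 1 to 5. BGN held both the highest and the lowest library, from 26 to 46 reads, and Control ran from 26 to 35 reads. The log2 fold change was 0.18 ± 0.21 (SE), and its interval ran between -0.24 and 0.61 (adjusted p = 0.9747, edgeR). Of the 6 members this was the one interval that reached past 1.5-fold, to 1.52-fold. Without single libraries the estimate ran from 0.083 to 0.29, the lowest without BGN replicate 3 and the highest without BGN replicate 4.

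Serpinb5 encodes maspin, a clade B serpin described in human mammary epithelium, for which no protease inhibition of the classical serpin kind is known. It was the most abundant member, at 449, 429.8, 449.8, 465.9 and 477 CPM in BGN replicates 1 to 5, against 459, 451, 469.6, 461 and 417 CPM in Control replicates 1 to 5. The 4 other Control libraries lay within the BGN range, and Control replicate 5 lay below it. The log2 fold change was 0.0088 ± 0.041 (SE, interval -0.077 to 0.094, adjusted p = 0.993 by edgeR), or between 0.948-fold and 1.07-fold. The sign turned without BGN replicate 5 (-0.0077), without Control replicate 5 (-0.018) and by limma-voom (-0.018). Its biological coefficient of variation, 5.43%, was close to the median of genes of like count, 5.53%.

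No member passed the test between BGN and Control. At an adjusted p under 0.05, 0 of 6 were called, as were 0 of all 14415 genes (0%). The smallest adjusted p of a member was 0.965 (Plat). The count was likewise 0 of 6 at an unadjusted p under 0.05, where 4.81% of all genes lay (2.43% higher and 2.38% lower in BGN), and by DESeq2 and limma-voom, which called 0 of all genes (662 and 808 at an unadjusted p under 0.05), 0 members were called. BGN and Control did not overlap for 0 of 6 members and for 0.728% of all genes (0.375% with BGN above and 0.354% with BGN below). Estimates lay above 0 for 4 members and below 0 for 2 (48% of all genes lay above), with a median of 0.011, against -0.0040 over all genes tested. The 95% interval lay within 1.5-fold in either direction for 5 of the 6, and for 84.9% of all genes.

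Variation shared between members was read from pairs. Among 15 pairs compared over the 10 libraries, 6 had a Pearson r above 0 and 0 passed after Benjamini-Hochberg adjustment. The pair of smallest p was Plat and Serpinb2, with r = -0.73 (permutation p = 0.0216, adjusted p = 0.324) and Spearman rho = -0.67 (permutation p = 0.0382, adjusted p = 0.551). Without the 2 libraries farthest from the median of Plat, BGN replicate 4 and Control replicate 4, its r was -0.49 (permutation p = 0.218), and it was -0.64 without the first alone and -0.67 without the second alone. Over all omissions of a single library, r of this pair ran from -0.87, without BGN replicate 3, to -0.64. Plau and Plat had r = -0.66 (permutation p = 0.0439, adjusted p = 0.330) and rho = -0.60 (permutation p = 0.0734, adjusted p = 0.551), and r = -0.55 (permutation p = 0.156) without BGN replicate 5 and Control replicate 1, the farthest in Plau. The highest r was 0.52, for Plau and Serpine2 (permutation p = 0.121, adjusted p = 0.550; rho = 0.48, permutation p = 0.165, adjusted p = 0.620), and it was 0.31 without the same 2 libraries. Leaving out the 2 farthest libraries moved other pairs the other way, most of all Serpine2 and Serpinb2, a pair named after its values were seen, with r = -0.03 over 10 libraries and -0.80 without BGN replicate 5 and Control replicate 2 (permutation p = 0.0148, not adjusted). Taken as deviations from the group means, r was -0.70 for Plat and Serpinb2, -0.65 for Plau and Plat, 0.51 for Plau and Serpine2, and -0.081 for Serpine2 and Serpinb2.

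Genes whose pattern over the 10 libraries was most like each member's were picked as the 3 of highest r among 11964 or 11965 genes averaging 50 counts or more, as a description with no test. For Plau these were Stard7 (r = 0.91), Fam210b (0.90) and Polr1h (0.90), and for Plat they were Morc4 (0.93), Clic4 (0.91) and Cldn12 (0.89). Serpine2 was most like Hnrnpa1 (0.96), Tgfb3 (0.95) and Gart (0.94), and Serpinb5 most like Fbxw11 (0.95), Dse (0.95) and Gm15387 (0.95). The scarce Plaur was most like Cdk6 (0.91), Ttc37 (0.90) and Gmpr (0.90), and Serpinb2 most like Ddhd1 (0.88), Dmac2 (0.85) and Epb41l4aos (0.84). These r values are the highest of that many genes searched, and nothing is read from them.

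The other genes of the system were read from 7 lists of 85 genes, of which 51 were tested and 0 passed in either direction. Of these 51, 26 had estimates above 0 and 25 below 0, with a median of 0.00047. At an unadjusted p under 0.05 there were 5, namely Itgav, Egfr, Hpn, Mmp13 and Mmp3, where 4.81% of all genes lay, and 0 of the 51 had groups without overlap, against 0.728% of all genes. The transcript of plasminogen, the substrate of both activators, was all but absent: Plg had 1 read in the 10 libraries together. Counts cover the RNA of the cells alone, and protein supplied by the serum in the medium was not measured. The serum-protein genes Serpinf2, the main plasmin inhibitor, and A2m, a broad protease inhibitor, had 13 and 7 reads in all, and Vtn (vitronectin, a matrix ligand of the urokinase receptor), Serpina5 and F10 had 0 reads, which allows up to 0.0153 CPM over the 10 libraries (3 reads of their total, counting error only).

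All 5 tested surface receptors of plasminogen had estimates below 0 (median -0.085), where 48% of all genes lay above 0, and 0 passed. Eno1, a glycolytic enzyme that also binds plasminogen, was at 1296 ± 175 CPM with BGN against 1374 ± 104 CPM in Control (log2 fold change -0.085, but -0.0026 without BGN replicate 5 and 0.011 without both replicates 5). Its reads may be shared with a retrotransposed copy, so this count is uncertain. S100a10 and Anxa2, whose products form the annexin A2 heterotetramer that binds plasminogen and tissue-type activator, stood at 160.4 ± 7.54 and 780.2 ± 24.3 CPM with BGN, where Control had 173 ± 15.1 and 824 ± 41.3 CPM (log2 fold changes -0.11 and -0.079, adjusted p = 0.945 each by edgeR). Without Control replicate 1 these were -0.060 for S100a10 and -0.051 for Anxa2.

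Among other inhibitors, 2 of 7 were tested and 0 passed. Serping1, the C1 inhibitor gene, was at 22.004 ± 1.84 CPM with BGN against 24.4 ± 2.26 CPM in Control (log2 fold change -0.15, but -0.099 without BGN replicate 5, adjusted p = 0.945 by edgeR). Serpini1, the gene of neuroserpin, an inhibitor of tissue-type activator, was at 2.73 ± 0.751 CPM with BGN against 2.75 ± 0.445 in Control. The list of clearance and endocytic receptors, which includes the chaperone gene Lrpap1, split 4 above and 3 below 0. Igf2r, the gene of the cation-independent mannose phosphate receptor, was at 207 ± 14.2 CPM with BGN against 194 ± 17.996 CPM in Control (0.092, but 0.045 without Control replicate 1 and 0.14 without Control replicate 5). Mrc2, a collagen receptor gene whose product associates with the urokinase receptor, was scarce at 1.01 ± 0.187 CPM with BGN against 0.718 ± 0.218 in Control (0.49, interval -0.064 to 1.04). Lrpap1, the gene of a chaperone for receptors of the low density lipoprotein receptor family, was at 71.8 ± 4.34 CPM with BGN against 76.0 ± 2.79 in Control (-0.083, but -0.053 without BGN replicate 5). No gene of this list passed.

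Partners of the urokinase receptor split 5 above and 4 below 0 (median 0.014) and 0 of 9 passed. Itgb1, the beta 1 integrin gene, was at 1092 ± 17.3 CPM with BGN against 1082 ± 12.2 CPM in Control (log2 fold change 0.014, between 0.0067 and 0.022 without single libraries). Itgav, the gene of the alpha v integrin chain that binds vitronectin, was at 336 ± 23.1 CPM with BGN against 305 ± 15.98 in Control (0.14, adjusted p = 0.945 by edgeR). Egfr, the epidermal growth factor receptor gene, was at 139 ± 6.99 CPM with BGN against 128 ± 7.70 in Control (0.13, adjusted p = 0.945 by edgeR). In Egfr and Itgav the BGN and Control libraries overlapped.

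**Figure D4:**
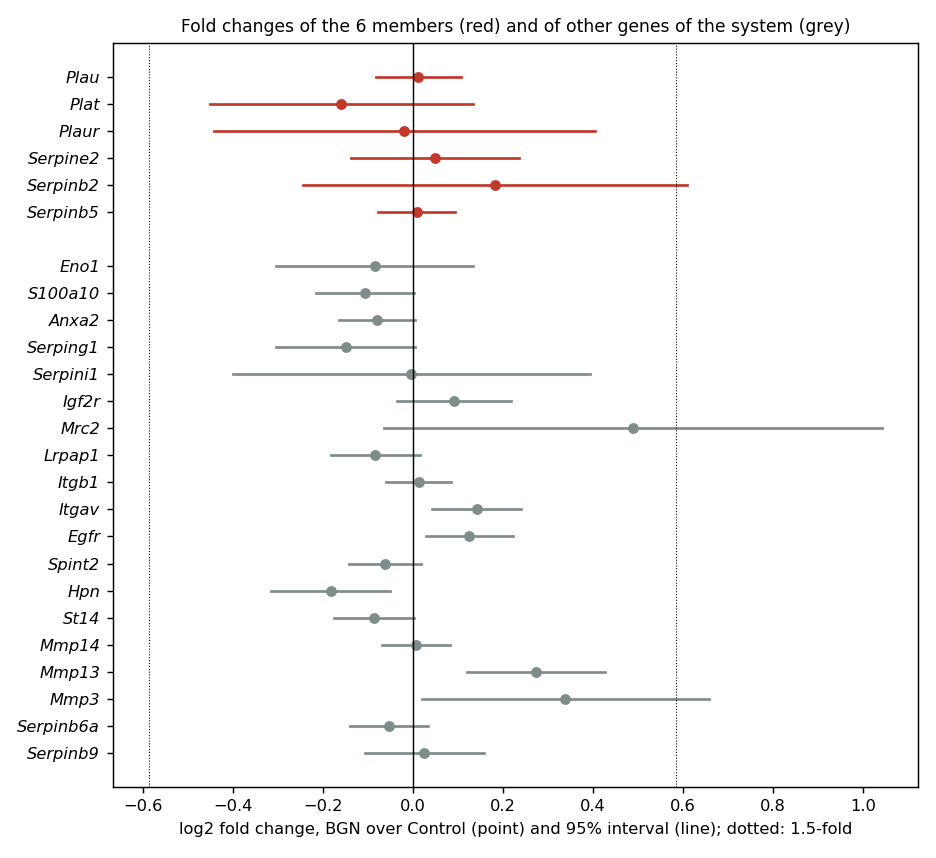
Log2 fold change of BGN over Control (points) with its 95% interval (lines) for the 6 members in red and for 19 other genes of the system, named by rule, in grey; dotted lines mark 1.5-fold. The intervals of Plau and Serpinb5 are the narrowest among the members, and no gene shown passed the adjusted threshold.

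Other trypsin-like surface proteases, with their inhibitors and receptors, split 5 above and 6 below 0, and 0 of 11 passed. Hpn, the gene of the membrane protease hepsin, was at 23.8 ± 0.909 CPM with BGN against 27.0 ± 2.07 CPM in Control (log2 fold change -0.18, adjusted p = 0.945 by edgeR). St14, the gene of matriptase, which can activate the urokinase proenzyme, was at 305 ± 7.69 CPM with BGN against 324 ± 20.2 in Control (-0.086, but -0.046 without Control replicate 5, the highest St14 library), and Spint2, the gene of an inhibitor of both, at 392.2 ± 8.99 CPM with BGN against 409 ± 16.3 in Control (-0.061). Substrates of plasmin and the activators had 9 of 12 estimates above 0 (median 0.069) and 0 passed. The collagenase gene Mmp13 was at 29.8 ± 3.02 CPM with BGN against 24.6 ± 2.16 CPM in Control (0.27, adjusted p = 0.945 by edgeR), and the stromelysin gene Mmp3 at 5.24 ± 1.36 CPM with BGN against 4.16 ± 0.337 in Control (0.34, but 0.23 without BGN replicate 1). Mmp14, a membrane-bound metalloproteinase gene, had 529.9 ± 11.2 CPM with BGN against 527 ± 12.7 in Control (0.0079, but -0.0065 when Control replicate 1 was left out).

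Serpinb2 and Serpinb5 belong to a family with many mouse genes, of which the cultures held few. Of 20 other clade B serpins, 5 were tested and 0 passed, 3 with estimates above and 2 below 0. Per kb, Serpinb5 stood highest of all 22. Serpinb6a was at 203 ± 5.63 CPM with BGN against 211 ± 11.4 CPM in Control (log2 fold change -0.053, but -0.022 without Control replicate 1) and Serpinb9, an inhibitor of granzyme B, at 35.2 ± 1.56 CPM with BGN against 34.6 ± 3.40 in Control (0.026). Close relatives could share reads with Serpinb6a, so its count is uncertain. Of the same family, Serpinb7, Serpinb3a, Serpinb3b, Serpinb3c and Serpinb3d had 0 reads in all 10 libraries.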

How the data were processed

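Per the labels' protocols, poly-A RNA of 10 samples was made into NEBNext Ultra libraries. What was deposited is a table of raw read counts, with gene symbols in rows and samples in columns. The build is GRCm39 and the named tools are HTSeq, HISAT2 2.2.1, cutadapt 1.9.1, DESeq2 and FastQC, per the submitters' processing notes. Neither annotation release nor strand setting is given in the sources used here, so reads of overlapping, antisense or near-identical genes may not be separable. Groups came from sample titles and columns from sample descriptions.

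In edgeR 4.0.16 under R 4.3.3, filterByExpr kept 14415 genes, TMM factors scaled them, and a robust quasi-likelihood fit on treatment alone gave p-values, adjusted by Benjamini-Hochberg over those genes. A gene was called at an adjusted p under 0.05. The SE came from the fold change and its F statistic. Marker sums were scaled by library totals alone. Correlations between members took log2 CPM (prior count 2) and 100000 resamples. Lengths, known for 97.7% of tested genes, came from GENCODE M21 and promoters from RefSeq, both GRCm38. Every pair of libraries differed by more than sampling noise (chi-square per degree of freedom at least 2.43). In counts simulated from these libraries, over 14415 genes, edgeR called 78% of genes changed 1.25-fold and 96% of those changed 1.5-fold. For each fold 50 genes were changed. All were drawn from genes averaging at least 50 counts, so that genes as scarce as Plaur and Serpinb2 were not tried. The shares were not split by count or spread. They need not hold for Plat, at 100.9 reads and a biological coefficient of variation of 12.5%. Genes changed 2-fold and 3-fold were planted in the same run, which loosens the adjusted threshold, and genes were drawn independently of each other. The shares called may therefore be higher than these libraries allow for a single changed gene.

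Named genes were the 6 members, in each list the most abundant gene and the 2 of smallest p, and the genes of most similar pattern. Oas3 and Kctd12, named once below, lie outside this rule and were chosen after their values were seen; 1 further gene is not reported here. The members and lists were chosen with earlier results of these data known. Alternatives were 3 other scalings, 2 other filters, no robust estimation, DESeq2 1.42.0, limma-voom (limma 3.58.1), the replicate number as a block, leaving out single libraries or both replicates 5, and merged exon lengths (for levels and ratios), the last chosen after seeing the data.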

Additional observations from a re-analysis of the deposited data

Results flagged for a closer look

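In 6 of 74 sets of 5 libraries, 1 library lay far from the other 4; chance gives about 1 in 20. None of the 6 members was among them. All values here are set against the other 4 libraries of the same group. BGN replicate 5 had the highest Serpinb9 in BGN, at 37.96 CPM (next 34.98), and the lowest summed luminal markers in BGN, at 3896 CPM (next 4111). BGN replicate 2 had the highest summed fibroblast markers in BGN, at 52.7 CPM (next 47.6). Control replicate 4 had the lowest Eno1 in Control, at 1193 CPM (next 1384). Control replicate 5 had the highest Lrpap1 in Control, at 80.9 CPM (next 75.5), and the highest St14 in Control, at 359 CPM (next 319.8).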

How the results depend on the processing

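The count of called genes was 0 under every setting run except without the filter on low counts, where 3 genes passed, among them Kctd12 and Oas3; none was a member or a listed gene of the system, and the cause was not tested. Across the 20 alternatives per member, 0 members were called (lowest adjusted p = 0.734, for Plat). Estimates of Plat and Serpinb2 kept their sign in all 20. Without single libraries, the estimates ran from -0.00089 to 0.034 for Plau, -0.28 to -0.094 for Plat, -0.074 to 0.099 for Plaur, -0.029 to 0.092 for Serpine2, 0.083 to 0.29 for Serpinb2, -0.018 to 0.029 for Serpinb5, -0.093 to 0.13 for Serpini1, -0.0065 to 0.019 for Mmp14 and -0.027 to 0.059 for Serpinb9. Without both replicates 5, the sign turned for Serpine2 (-0.026), Serpinb5 (-0.035), Serpinb9 (-0.055) and Eno1 (0.011). Mrc2 was not tested under the filter of 1 CPM in 5 libraries. With limma-voom the sign turned for Serpinb5 (-0.018) and Serpinb9 (-0.020). Leaving out single libraries called 0 genes, 0 genes of the system and 0 pairs of members each time.

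Deviations of the 5 same-numbered pairs of libraries correlated at -0.020 to 0.20, with 1 of 5 above 0.1. Of the 5 BGN libraries, 1 was closest to its own number. The labels do not say what a replicate number stands for, and whether same-numbered samples share an animal or a batch was not tested. With the replicate block, 0 genes were called (825 at an unadjusted p under 0.05, smallest adjusted p = 0.238) and the estimates were 0.013 for Plau, -0.16 for Plat, -0.024 for Plaur, 0.045 for Serpine2, 0.17 for Serpinb2 and 0.0090 for Serpinb5. Plaur and Serpinb2 had about 34 reads per library, and what could be detected at that depth was not tried.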
